A study of Mus musculus with 12 samples.

Results

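The genes described here are 42 interferon-stimulated genes, chosen by name from the table of raw counts, which holds 55335 genes. Each name matched a gene, and the row with the highest total was taken where a symbol was repeated. They were divided by the role of their proteins into 10 antiviral genes of the Ifit, Oas and Mx families, 11 GTPase genes of the guanylate-binding (Gbp) and immunity-related (Irgm) families, 5 sensors of nucleic acids, 4 schlafens and 12 other effectors. The question was how their mRNA levels differed between macrophages or livers of mice that lacked the thyrotropin receptor Tshr in myeloid cells and those of littermates that kept it.

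RNA sequencing was done on 12 libraries, 3 in each of 4 groups. BMDMs, which are macrophages grown from bone marrow, came from Tshr f/f mice and from Tshr MKO mice (Tshr f/f with Lyz2-Cre), were cultured for 7 days with 10 ng/mL of the growth factor M-CSF, and were all treated with 1 ng/mL thyrotropin (TSH) for 24 hours. Livers came from Tshr f/f and Tshr MKO mice fed a high-fat diet (HFD) for 9 weeks, given 1.5 U/kg insulin for 5 minutes after an 8-hour fast. All mice were males on a C57BL/6N background. The labels give an age of 6 weeks, for the livers at the start of the diet, and for the donors of BMDMs the study's methods give a wider range. The loxP sites flank the part of Tshr from exon 10 to the stop codon in both genotypes, and Lyz2-Cre removes it in myeloid cells, so that most cells of a Tshr MKO liver keep the gene. No BMDM library without TSH and no liver from chow-fed mice or from mice without insulin was analysed here, so effects of TSH, diet or insulin themselves could not be measured.

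Interferons are secreted proteins that signal through paired receptors and JAK kinases to STAT transcription factors. Type I interferons (Ifnb1 and the Ifna genes) act mainly through a complex that holds STAT2 and IRF9, at a promoter element called the ISRE, and type II interferon (Ifng) acts mainly through STAT dimers at an element called GAS, and through Irf1. In macrophages, the antiviral genes are a classical type I response, whereas the Gbp and Irgm genes are strongly induced by Ifng, although each group responds to both types.

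Library totals ranged from 28962878 to 40954211 counts. The TMM scaling factor, which corrects for a few genes taking a large share of counts, was 0.738 in f/f BMDM replicate 3 and between 0.891 and 1.11 in the other 11 libraries. Tshr could not check the labels, with 0, 0 and 2 counts in the f/f BMDM libraries, 0, 0 and 5 in the MKO BMDM libraries and 0 in each liver. Macrophage markers (10 genes) summed to 20870.0 to 25520.0 CPM (counts scaled to the TMM-corrected library total) in f/f BMDMs and 25520.0 to 35140.0 CPM in MKO BMDMs, and hepatocyte markers (8 genes) summed to 84220.0 to 105400.0 CPM in f/f livers and 99600.0 to 99750.0 CPM in MKO livers. Liver f/f replicate 1 stood apart from the other 5 livers in markers of non-parenchymal cells, described with the liver results, and liver MKO replicate 1 held 1.56 CPM of Lyz2, against 27.7 CPM or more in the others. A listing among the study's materials pairs the liver libraries with the opposite genotypes, so the direction of every liver difference rests on the sample labels. In liver, 9 of 10 macrophage and 5 of 5 monocyte markers had log2 fold changes below 0 under the labels (50.9% of all genes). The monocyte markers had a median of -1.39, with 2 of 5 lower at an unadjusted p under 0.05 (5.18% of all genes). Kupffer cell markers, which mark resident liver macrophages, were mixed, with 4 of 7 below 0 and a median of -0.16. What these markers say of the labels was not tested.

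Promoters are shown for 3 GTPase genes and for 3 antiviral or effector genes that ordered the BMDM libraries differently, since they carry the elements through which interferons act. Each stretch runs from 250 bases before the annotated start of the gene to 50 bases after it, 5′ to 3′ on the strand of the gene, from RefSeq on GRCm38.p6. Capitals mark matches, on either strand, to the core of the ISRE, searched as GAAA followed after any 2 bases by GAAA. A match on the opposite strand reads as TTTC, any 2 bases and TTTC.
Gbp2 (chr3:142620413-142620712, plus strand): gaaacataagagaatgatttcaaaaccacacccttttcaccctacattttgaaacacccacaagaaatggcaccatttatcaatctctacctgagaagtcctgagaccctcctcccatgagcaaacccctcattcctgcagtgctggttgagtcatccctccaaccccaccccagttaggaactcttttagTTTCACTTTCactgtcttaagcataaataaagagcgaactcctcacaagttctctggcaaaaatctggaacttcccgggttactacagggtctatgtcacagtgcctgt
Gbp5 (chr3:142496684-142496983, plus strand): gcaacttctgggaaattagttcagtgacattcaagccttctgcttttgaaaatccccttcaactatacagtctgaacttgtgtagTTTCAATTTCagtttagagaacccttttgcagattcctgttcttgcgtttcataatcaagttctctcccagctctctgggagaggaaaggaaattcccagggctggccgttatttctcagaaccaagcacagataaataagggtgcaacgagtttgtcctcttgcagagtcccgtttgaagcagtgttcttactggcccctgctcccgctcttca
Igtp (chr11:58199306-58199605, plus strand): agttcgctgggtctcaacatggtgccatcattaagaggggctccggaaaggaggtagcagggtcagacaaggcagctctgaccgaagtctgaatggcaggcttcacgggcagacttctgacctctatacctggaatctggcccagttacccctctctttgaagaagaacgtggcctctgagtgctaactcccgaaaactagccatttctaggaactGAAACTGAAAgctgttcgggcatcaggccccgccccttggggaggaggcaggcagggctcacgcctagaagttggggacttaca
Ifit1 (chr19:34640639-34640938, plus strand): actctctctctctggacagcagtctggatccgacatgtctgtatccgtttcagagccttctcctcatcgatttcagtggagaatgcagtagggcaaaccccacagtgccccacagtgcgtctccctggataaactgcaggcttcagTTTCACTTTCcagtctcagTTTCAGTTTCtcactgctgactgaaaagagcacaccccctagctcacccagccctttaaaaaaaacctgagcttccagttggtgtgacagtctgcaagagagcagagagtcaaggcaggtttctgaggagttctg
Isg15 (chr4:156200769-156201068, minus strand): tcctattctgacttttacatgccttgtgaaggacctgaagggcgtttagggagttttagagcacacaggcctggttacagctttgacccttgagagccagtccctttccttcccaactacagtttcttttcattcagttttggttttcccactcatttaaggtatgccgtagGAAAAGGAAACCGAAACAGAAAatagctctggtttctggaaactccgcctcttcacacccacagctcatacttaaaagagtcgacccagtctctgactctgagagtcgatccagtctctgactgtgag
Rsad2 (chr12:26456403-26456702, minus strand): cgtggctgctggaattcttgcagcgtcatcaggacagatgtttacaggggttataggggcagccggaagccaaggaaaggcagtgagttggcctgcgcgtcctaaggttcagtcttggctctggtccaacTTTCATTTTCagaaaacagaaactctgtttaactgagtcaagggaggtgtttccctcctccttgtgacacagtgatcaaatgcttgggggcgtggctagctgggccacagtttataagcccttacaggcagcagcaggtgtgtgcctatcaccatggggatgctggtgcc

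In these stretches the match began 59 bases before the start in Gbp2, 165 in Gbp5, 34 in Igtp and 120 in Rsad2, while Ifit1 held matches 104 and 85 bases before it and Isg15 held 3 overlapping matches at 78, 72 and 66 bases. RefSeq promoters were given for 32 of the 42 genes. Of these 32, 20 (62.5%) held the ISRE core, against 3.99% of 27025 genes with a promoter. By role, the core was found in 8 of 9 GTPase genes, 4 of 7 antiviral genes, 2 of 2 sensors, 1 of 4 schlafens and 5 of 10 other effectors. The core of the GAS element, TTC followed after any 3 bases by GAA, which reads the same on both strands, was found in 10 of the 32 genes (31.2%), against 9.55% of the 27025. It was present in 5 of 9 GTPase genes, Gbp5 and Igtp among them but not Gbp2, and in 2 of 7 antiviral genes. A stricter form of GAS, TTCC followed after any base by GGAA, was found in 3 of 9 GTPase genes and 1 of 7 antiviral genes. It was found in 1.35% of the 27025 genes, and neither Gbp5 nor Igtp held it. In 2 member promoters, those of Bst2 and Ifitm3, a match to one element overlapped a match to the other.

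Levels of different genes were compared as CPM per kilobase of exon (RPKM), on 1 scale for all 12 libraries. In f/f BMDMs the highest level was that of Ifitm3, a membrane protein that blocks viral entry, at 1084 ± 575 RPKM (SD, n = 3). The highest of the GTPase genes was Gbp2 at 451 ± 271 RPKM, of the schlafens Slfn2 at 377 ± 284, of the sensors Ifi204 at 143 ± 94.8 and of the antiviral genes Ifit3 at 120.5 ± 96.7, which its spread did not separate from Oas1a at 120.0 ± 82.1 RPKM. The f/f SDs were large beside the means, since the f/f libraries differed among themselves. In MKO BMDMs the same genes stood at 568 ± 74.2 RPKM for Ifitm3, 70.3 ± 29.2 for Gbp2, 144 ± 18.2 for Slfn2, 73.7 ± 9.74 for Ifi204, 41.6 ± 18.6 for Ifit3 and 60 ± 12.1 for Oas1a. In f/f livers Ifitm3 was again highest, at 538 ± 46.6 RPKM, followed by Bst2, which tethers budding virus to the cell, at 125 ± 17.6 and by the GTPase gene Iigp1 at 53.4 ± 11.1 RPKM. Every BMDM library was above every liver library for 30 of the 42 genes, none was the other way round, and 12 overlapped. The share of all genes that separated in this way was not computed, so these counts do not set the 42 genes apart. The ratio of the f/f means, BMDM over liver, was 294 for Gbp5 and 0.955 for Iigp1. The same ratio of the MKO means was 9.74 for Gbp5 and 0.175 for Iigp1. The f/f means of Gbp5 had wide spreads, at 98.8 ± 94.7 RPKM in BMDMs and 0.34 ± 0.22 RPKM in livers.

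In BMDMs, the fitted level of all 42 genes was lower in the Tshr MKO group than in the Tshr f/f group, whereas 49.2% of the 15372 genes tested had a log2 fold change below 0. All 42 passed the filter on low counts. The median log2 fold change (MKO over f/f) of the 42 genes was -1.75, against 0.01 over all genes tested, and the values ranged from -4.14 for Gbp5 to -0.44 for Samhd1. With edgeR's quasi-likelihood test, 21 of 42 were lower at an unadjusted p under 0.05 (10.2% of all genes) and 0 were higher (7.73%). None of the 42 passed after Benjamini-Hochberg adjustment over all genes, where 0% of genes passed in either direction and the lowest adjusted p was 0.218. DESeq2, which was run as an alternative, called 17 of 42 lower at an adjusted p under 0.05 (4.76% of its genes) and 0 higher (3.54%). Because the samples are bulk RNA, fewer cells in a given state and less RNA per cell cannot be told apart. The study's methods describe the replicates of a group as mice, but the labels tie no library to a mouse, so the p-values measure the spread between these samples, which may in part be technical.

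The 3 f/f BMDM libraries differed among themselves. Replicates 1 and 3 were above all 3 MKO libraries for 42 of 42 genes, where 30.7% and 37.4% of all genes were. Replicate 2 was the lowest f/f library for 42 of 42 genes. It was above all MKO libraries for 10 genes (32.3% of all genes), below all of them for 25 (30.4%) and within their range for 7. The ratio of the highest to the lowest f/f library had a median of 6.51 over the 42 genes and a range of 1.49 to 44.3, whereas the same ratio among the MKO libraries had a median of 1.48 and a range of 1.04 to 5.20. The f/f ratio was the wider for 42 of 42 genes. The share of all genes with a wider f/f ratio was not computed. Over all genes too, pairs of f/f libraries differed more than pairs of MKO libraries. Their chi-square per degree of freedom was 219.9 to 518 in f/f and 12.21 to 107.4 in MKO. Without replicate 2, 42 of 42 genes were lower in MKO at an unadjusted p under 0.05 (14.7% of all genes), and Igtp and Tgtp1 passed with an adjusted p of 0.0464 for each in edgeR (0.0830% of all genes). Leaving out another library lowered the count of 21 to 13 without f/f replicate 1 (9.12% of all genes), 9 without f/f replicate 3 (7.40%), 8 without MKO replicate 1 (4.60%), 9 without MKO replicate 2 (5.17%) and 12 without MKO replicate 3 (7.59%). Markers of stellate cells or fibroblasts (8 genes, of which 6 were tested) summed to 2796 CPM in f/f replicate 2, 1255 and 1165 CPM in f/f replicates 1 and 3, and 790.3 to 1526 CPM in MKO. The part of such cells in the differences was not tested. Under each of these 6 omissions, all 42 log2 fold changes stayed below 0, and their median was -2.20 without f/f replicate 2, -1.16 without f/f replicate 3 and between these without any other. Scaling by library totals alone moved the median over all genes from 0.01 to 0.17 and that of the 42 genes to -1.45, with 42 of 42 still below 0.

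**Figure D1:**
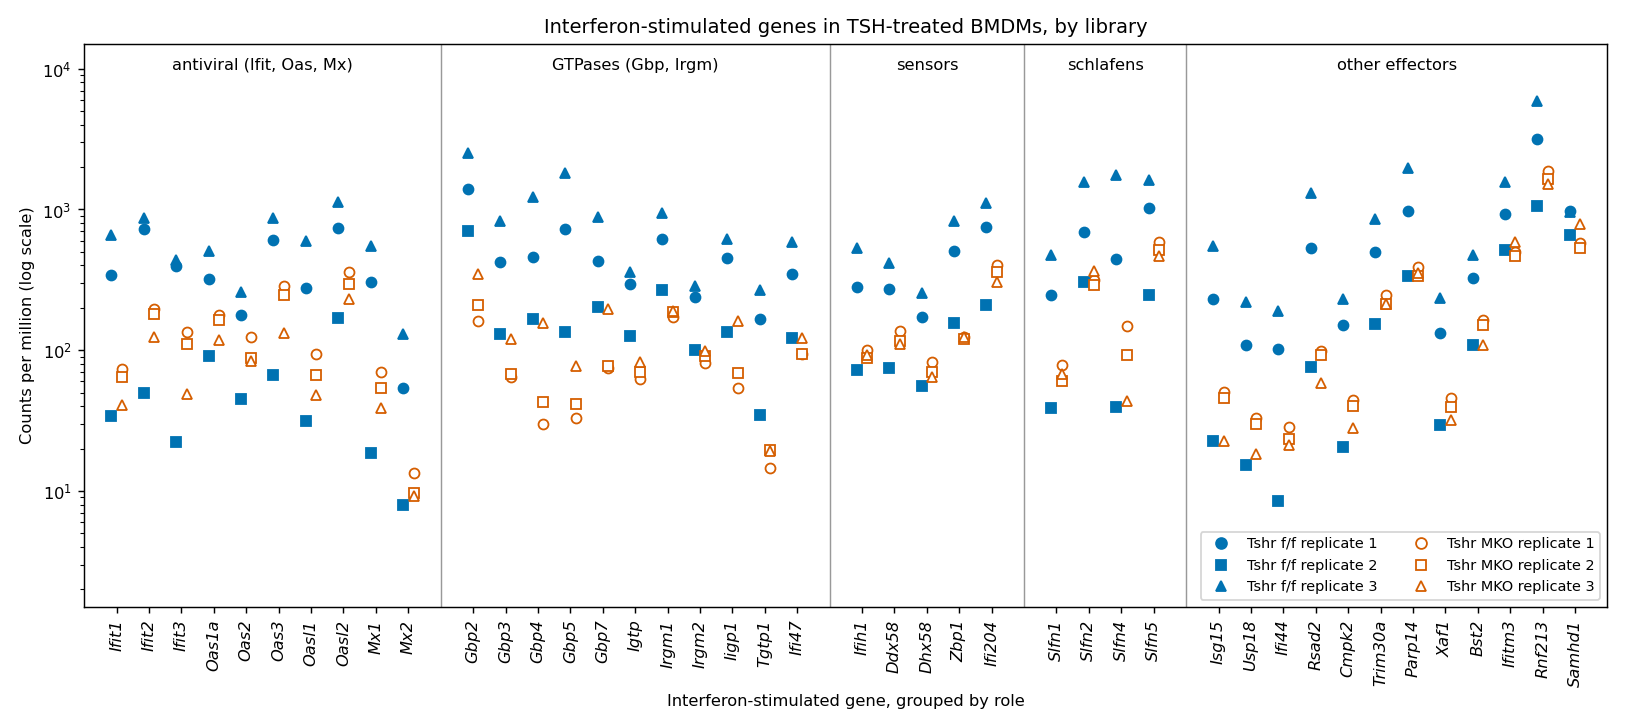
Each of the 42 genes in the 6 BMDM libraries, in CPM on a log axis, grouped by role, with filled symbols for f/f and open symbols for MKO and 1 symbol shape per replicate number. Replicates 1 and 3 of f/f lie above the MKO libraries for every gene, while f/f replicate 2 lies below them for all 10 antiviral genes and above them for 9 of 11 GTPase genes.

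The GTPase genes were lower in MKO with little overlap between the genotypes. Gbp proteins assemble on the vacuoles and surfaces of intracellular pathogens, and Irgm proteins guide the related effector GTPases to such vacuoles. All 11 were lower in MKO at an unadjusted p under 0.05 (10.2% of all genes), with a median log2 fold change of -2.13. In 9 of 11 every MKO library was below every f/f library (14.0% of all genes). DESeq2 called all 11 lower at an adjusted p under 0.05 (4.76% of its genes). Gbp2 was at 1403, 701 and 2529.7 CPM in f/f replicates 1 to 3 and at 160.5, 209 and 347 CPM in MKO replicates 1 to 3. The lowest f/f library for Gbp2 was thus above the highest MKO library, and the log2 fold change was -2.69 ± 0.55 (SE; edgeR unadjusted p = 0.00227, adjusted p = 0.218). Gbp5, which promotes inflammasome assembly, had the largest log2 fold change of the 42. It was at 724, 134 and 1814 CPM in f/f and 32.7, 41.3 and 77.8 CPM in MKO, with no overlap and a log2 fold change of -4.14 ± 0.96 (unadjusted p = 0.00443 in edgeR). Igtp, also called Irgm3, a regulator of the family, was at 295, 126 and 361 CPM in f/f and 62.7, 70.4 and 82.7 CPM in MKO. Its f/f libraries were again all above its MKO libraries, and its log2 fold change was -1.86 ± 0.39 (unadjusted p = 0.00269 in edgeR). The effector Tgtp1 was at 166, 34.5 and 266 CPM in f/f and 14.5, 19.6 and 19.3 CPM in MKO, a log2 fold change of -3.13 ± 0.70. Iigp1 and Ifi47 were the 2 GTPase genes that overlapped between genotypes. Iigp1 was at 455, 134 and 621 CPM in f/f and 53.8, 68.9 and 162 CPM in MKO, and Ifi47 at 346, 122 and 587 CPM in f/f and 93.7, 94.3 and 123 CPM in MKO. In both it was f/f replicate 2 that fell inside the range of MKO, under the value of MKO replicate 3.

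The antiviral genes had a median log2 fold change of -1.62 but overlapped between genotypes in 10 of 10 cases. In each of the 10, f/f replicate 2 was below all 3 MKO libraries. Only 2 of 10, Mx2 and Ifit1, were lower at an unadjusted p under 0.05 (10.2% of all genes). DESeq2 called the same count of 2 lower at an adjusted p under 0.05 (4.76% of its genes). Mx2, of a dynamin-like family, was at 54.3, 7.90 and 130.3 CPM in f/f and 13.4, 9.74 and 9.18 CPM in MKO. Replicates 1 and 3 of f/f were thus far above MKO and replicate 2 just under it, with a log2 fold change of -2.57 ± 0.89 (unadjusted p = 0.0258 in edgeR). Ifit1, which binds foreign RNA, was at 344, 34.1 and 656 CPM in f/f and 74.1, 64.7 and 40.7 CPM in MKO, with the same order of libraries and a log2 fold change of -2.52 ± 0.94 (unadjusted p = 0.0338 in edgeR). Ifit3, the antiviral gene with the highest level per length, was at 399, 22.1 and 435 CPM in f/f and 136, 111 and 49.2 CPM in MKO. Oas2, whose product makes the oligoadenylates that switch on RNase L, had the smallest difference of the 10, at 177, 44.9 and 261 CPM in f/f and 123, 88.3 and 83.2 CPM in MKO and a log2 fold change of -0.71 ± 0.58. Within f/f, the ratio of the highest to the lowest library had a median of 17.0 over the antiviral genes and 4.62 over the GTPase genes.

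The antiviral and GTPase genes ordered the BMDM libraries differently. The mean log2 CPM of the 10 antiviral genes was 8.33, 5.29 and 9.02 in f/f replicates 1 to 3 and 6.84, 6.54 and 6.02 in MKO replicates 1 to 3. That of the 11 GTPase genes was 8.75, 7.22 and 9.54 in f/f and 5.95, 6.18 and 6.88 in MKO. The lowest of the 6 libraries was f/f replicate 2 for the antiviral genes and MKO replicate 1 for the GTPase genes. The GTPase mean minus the antiviral mean was 0.42, 1.93 and 0.52 in f/f and -0.90, -0.36 and 0.86 in MKO, so the libraries of the genotypes overlapped in this difference, f/f replicate 2 being the highest. Among the MKO libraries, replicate 1 was the highest and replicate 3 the lowest for 10 of 10 antiviral genes, while replicate 1 was the lowest for 11 of 11 GTPase genes and replicate 3 the highest for 10 of 11. The difference between the medians of the fold changes, GTPases minus antiviral genes, was -0.50 on the log2 scale. It ranged from -1.37 to -0.05 as each library was left out in turn, being -0.05 without MKO replicate 1 and -1.37 without MKO replicate 3. Genes of a family share regulators and some share reads, so they are not independent replicates of this contrast.

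**Figure D2:**
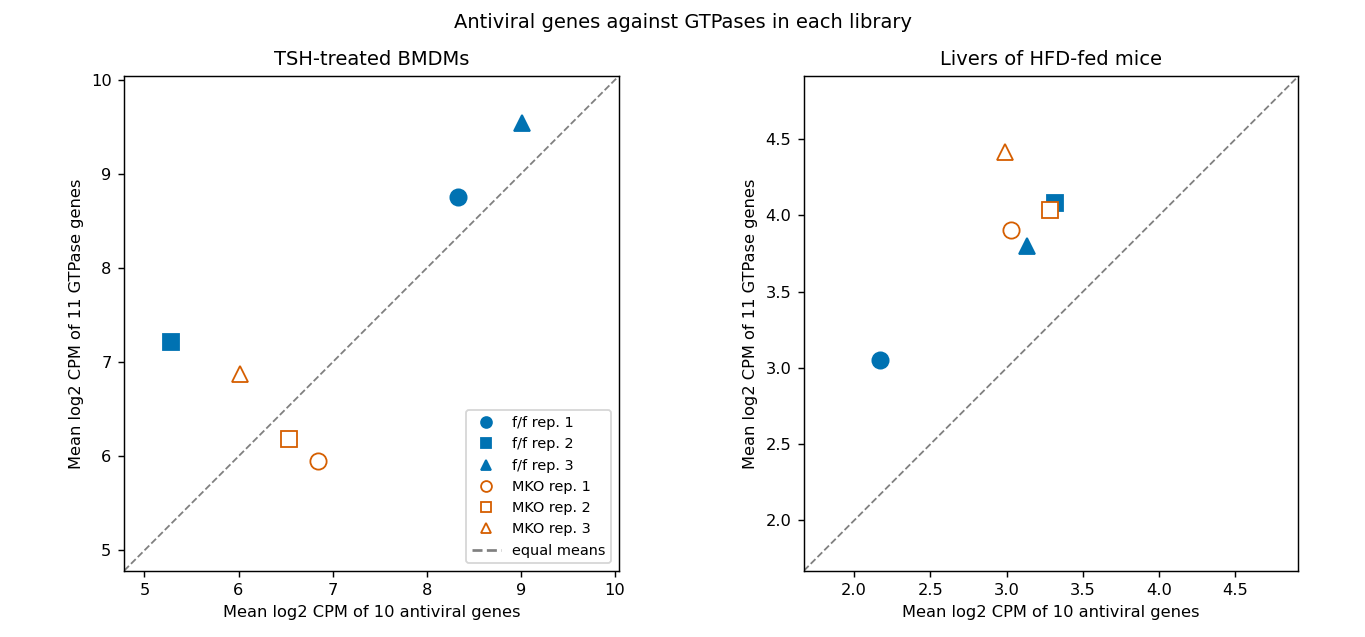
Each point is 1 library, placed by its mean log2 CPM over the 10 antiviral genes (horizontal) and over the 11 GTPase genes (vertical), for BMDMs on the left and livers on the right, with a dashed line at equal means. In BMDMs, f/f replicates 1 and 3 are high on both axes, f/f replicate 2 is lowest on the antiviral axis and above all MKO libraries on the GTPase axis. In livers, f/f replicate 1 is lowest on both axes.

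The 5 sensors detect viral or misplaced nucleic acids in the cytosol. Their median log2 fold change in BMDMs was -1.15, and 2 of 5 were lower in MKO at an unadjusted p under 0.05 (10.2% of all genes). Zbp1, which senses Z-form nucleic acids and can trigger cell death, was at 507, 156 and 833 CPM in f/f and 124, 120.3 and 125 CPM in MKO. Zbp1 was the only gene outside the GTPase group in which every MKO library was below every f/f library, and its log2 fold change was -2.02 ± 0.56 (unadjusted p = 0.0105 in edgeR). Ifih1, the RNA sensor MDA5, was at 282, 72.6 and 530.1 CPM in f/f and 101, 87.7 and 92.9 CPM in MKO, so that f/f replicate 2 was under all MKO libraries, with a log2 fold change of -1.65 ± 0.64 (unadjusted p = 0.0399 in edgeR). Ifi204, a DNA sensor and the highest of the 5 per length, was at 754, 209 and 1116 CPM in f/f and 404, 357 and 306 CPM in MKO. The RNA sensors Ddx58 and Dhx58 and Ifi204 had log2 fold changes of -1.07 ± 0.56, -1.15 ± 0.51 and -0.96 ± 0.56, and in each of them f/f replicate 2 was also under all MKO libraries.

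The schlafens, a family first named for growth arrest of thymocytes, had a median log2 fold change of -1.64 in BMDMs. Slfn2 was the 1 of 4 that was lower at an unadjusted p under 0.05 (10.2% of all genes). It was at 694, 306 and 1555 CPM in f/f and 314, 291 and 366 CPM in MKO, with f/f replicate 2 inside the MKO range and a log2 fold change of -1.40 ± 0.56 (unadjusted p = 0.0445 in edgeR). Slfn4 had the widest range of all 42 genes among the f/f libraries, at 444, 39.7 and 1757 CPM, against 149, 93.0 and 43.6 CPM in MKO. Its log2 fold change was -2.97 ± 1.23 (unadjusted p = 0.0501 in edgeR). Slfn1 and Slfn5 had log2 fold changes of -1.88 ± 0.79 and -0.89 ± 0.62.

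The 12 other effectors had a median log2 fold change of -1.67 in BMDMs. Of the 12, 5 were lower in MKO at an unadjusted p under 0.05 (10.2% of all genes). In 8 of 12, f/f replicate 2 was under all MKO libraries, and in 4 it was within them. Rsad2, the antiviral enzyme viperin, was at 536, 75.8 and 1305 CPM in f/f and 98.1, 93.1 and 58.3 CPM in MKO, with f/f replicate 2 between the MKO libraries and a log2 fold change of -2.94 ± 0.93 (unadjusted p = 0.018 in edgeR). Parp14, an ADP-ribosyltransferase, was at 978, 334 and 1959 CPM in f/f and 392, 336 and 351 CPM in MKO, a log2 fold change of -1.60 ± 0.59 (unadjusted p = 0.0335 in edgeR). Isg15, a ubiquitin-like modifier, was at 230.2, 22.7 and 547 CPM in f/f and 50.6, 45.9 and 22.8 CPM in MKO, and Usp18, which removes it from proteins and restrains the type I receptor, was at 109, 15.2 and 220.3 CPM in f/f and 32.9, 29.8 and 18.3 CPM in MKO. In both of these genes f/f replicate 2 was the lowest of all 6 libraries. Ifitm3, the gene with the highest level per length, was at 931, 513 and 1557 CPM in f/f and 500.0, 471 and 592 CPM in MKO, a log2 fold change of -0.94 ± 0.40. Samhd1, which degrades deoxynucleotides, had the smallest difference of the 42, at 976, 654 and 957 CPM in f/f and 576, 536 and 789 CPM in MKO.

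The genes that start and relay the interferon signal were read from the same BMDM libraries. Of 21 interferon ligand genes, 19 had 0 counts in each BMDM library. Ifng was at 19.6, 2.47 and 35.4 CPM in f/f and 0.418, 0.427 and 0.771 CPM in MKO, so each f/f library was above each MKO library. Its log2 fold change was -5.14 ± 1.01 (unadjusted p = 0.00185, adjusted p = 0.218 in edgeR). Its f/f order, replicate 3 over 1 over 2, was that of 41 of the 42 genes. The share of all genes in that order was not computed, and f/f replicate 3 was above all MKO libraries for 37.4% of all genes. The order therefore does not tie Ifng to the 42 genes. Ifnb1 had 18, 0 and 27 counts in f/f and 0, 0 and 0 in MKO. Its f/f mean of 0.496 CPM was at least 6.46-fold higher than the level of 3 counts in each MKO library (0.0769 CPM on average), while f/f replicate 2 had none. T cell and NK cell markers (11 genes), which mark other sources of Ifng, summed to 36.0 to 39.7 CPM in f/f and 12.99 to 51.06 CPM in MKO, and Cd3e was at 1.73, 2.98 and 1.42 CPM in f/f and 2.61, 0.880 and 3.78 CPM in MKO. The part of such cells in the differences was not tested.

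Of the 5 receptor genes tested, 2 were higher in MKO at an unadjusted p under 0.05 (7.73% of all genes) and 0 were lower (10.2%). Ifngr1, the ligand-binding chain of the Ifng receptor, was at 139, 129 and 69.2 CPM in f/f and 182, 168 and 272 CPM in MKO, higher in each MKO library (log2 fold change 0.89 ± 0.32, unadjusted p = 0.0315 in edgeR). Il10rb, shared by the receptors of interferon lambda and interleukin-10, was at 173, 139 and 176 CPM in f/f and 241, 231 and 198 CPM in MKO (log2 fold change 0.45 ± 0.17, unadjusted p = 0.0317 in edgeR). Ifnar1, Ifnar2 and Ifngr2 had log2 fold changes of 0.12 ± 0.13, -0.46 ± 0.21 and -0.04 ± 0.15. Ifnar2, a chain of the type I receptor, was the 1 receptor gene with every MKO library below every f/f library. None of the receptor genes passed after adjustment.

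Among the genes of the relay, Jak2, a kinase of the Ifng receptor, was at 303, 268 and 855 CPM in f/f and 82.9, 86.6 and 98.3 CPM in MKO. All 3 f/f libraries, replicate 2 included, were above every MKO library, and the log2 fold change was -2.41 ± 0.48 (unadjusted p = 0.00209, adjusted p = 0.218 in edgeR). Irf1 was at 1053, 396 and 1187 CPM in f/f and 256, 321 and 491 CPM in MKO, with f/f replicate 2 within the MKO range and a log2 fold change of -1.30 ± 0.46 (unadjusted p = 0.0291 in edgeR). Replicate 2 of f/f was under all MKO libraries for Stat2, Irf9 and Irf7, and also for Tyk2, Irf3, Irf5 and Irf8. For Jak1 it was within their range. Of the 5 receptor genes tested, it was above all MKO libraries for Ifnar2 and under them for the other 4. This position thus did not set the type I genes apart. Stat2 was at 238, 94.5 and 363 CPM in f/f and 147, 118 and 119.6 CPM in MKO, Irf9 at 85.3, 61.1 and 101 CPM and 79.5, 73.0 and 75.1 CPM, and Irf7, an amplifier of type I interferon genes, at 1002, 170.2 and 1591 CPM and 531, 409 and 266 CPM. Jak1, Tyk2, Irf3, Irf5 and Irf8 had log2 fold changes between -0.30 and 0.25.

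**Figure D3:**
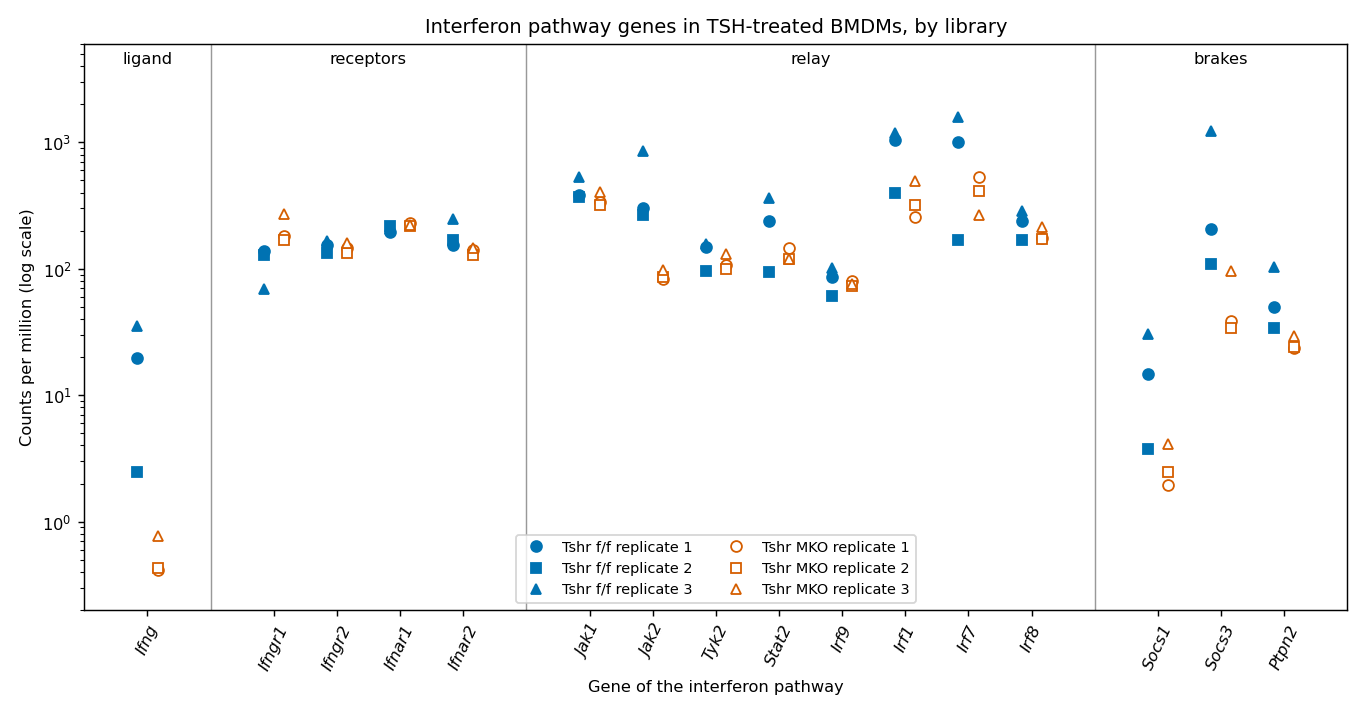
Genes of the interferon pathway in the 6 BMDM libraries, in CPM on a log axis, with filled symbols for f/f and open symbols for MKO. Ifng, Jak2, Ifnar2, Socs3 and Ptpn2 are higher in all 3 f/f libraries than in every MKO library. Replicate 2 of f/f lies below the MKO libraries for Stat2, Irf9 and Irf7, and also for Tyk2, Irf8, Ifnar1, Ifngr1 and Ifngr2.

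Of the 8 genes that restrain the signal, 5 were lower at an unadjusted p under 0.05 (10.2% of all genes), Usp18 among them. At the same threshold 1, Pias1, was higher (7.73% of all genes). Socs1, which blocks JAK kinases, was at 14.7, 3.78 and 30.7 CPM in f/f and 1.93, 2.45 and 4.12 CPM in MKO. Socs3, a related protein that restrains cytokine receptors, was at 205, 109 and 1241 CPM in f/f and 38.3, 34.3 and 95.3 CPM in MKO, with each f/f library above each MKO library and a log2 fold change of -3.21 ± 1.01 (unadjusted p = 0.0179 in edgeR). Ptpn2, a phosphatase of JAK and STAT proteins, was at 50.1, 33.8 and 103 CPM in f/f and 23.4, 23.9 and 29.3 CPM in MKO, with each f/f library above each MKO library. Of 15 genes that lead to interferon production, 4 were lower at an unadjusted p under 0.05 (10.2% of all genes) and 0 were higher (7.73%). These 4 were Traf3, Myd88, Ikbke and Tbk1, with log2 fold changes of -0.67 ± 0.21, -0.98 ± 0.33, -0.84 ± 0.30 and -0.91 ± 0.33. After adjustment, 0 of the 15 passed in edgeR and 0 in DESeq2. Of these 15, 5 had log2 fold changes above 0, and their median was -0.36 over the whole list. A wider list of 65 other interferon-stimulated genes, of which 63 were tested, had a median log2 fold change of -1.19. Of the 63, 27 were lower (10.2% of all genes) and 0 higher (7.73%) at an unadjusted p under 0.05, and 0 passed after adjustment. Its lowest p-values belonged to the immunoproteasome subunit Psmb8 (-1.003 ± 0.21), the GTPase gene Tgtp2 (-2.64 ± 0.60), Parp10 (-1.76 ± 0.41) and the chemokine Cxcl10 (-5.26 ± 1.23). The 8 further Gbp and Irg genes of that list had a median of -1.86, with f/f replicate 2 above all MKO libraries in 5 of 8 (32.3% of all genes). The 6 further Ifit and Oas genes had a median of -0.97, with f/f replicate 2 below all MKO libraries in 6 of 6 (30.4%). Among these genes Tgtp2, Ifit3b and Oas1g are near copies of Tgtp1, Ifit3 and Oas1a. Reads may be shared between them, so these counts are not independent of those of the 42 genes.

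In livers, the genotypes overlapped for 40 of the 42 genes, and more of the genes had a higher than a lower fitted level in MKO. All 42 passed the filter, and 9 of 42 had a log2 fold change below 0 (50.9% of 15062 genes). Their median log2 fold change (MKO over f/f) was 0.18, against -0.01 over all genes tested. Only Ifi47 was higher in MKO at an unadjusted p under 0.05 (5.27% of all genes), 0 of 42 were lower (5.18%), and 0 passed after adjustment in edgeR, where the lowest adjusted p of any gene was 0.0634. DESeq2 called 1 of 42, Ifi47 as well, at an adjusted p under 0.05 (1.01% of its genes higher in MKO), and 0 lower (1.16%). The GTPase genes had a median log2 fold change of 0.36 with 11 of 11 above 0, the antiviral genes 0.23 with 7 of 10 above 0, the sensors 0.11, the other effectors 0.21 and the schlafens -0.05.

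Ifi47, a member of the immunity-related GTPases, was at 12.1, 11.9 and 9.95 CPM in f/f livers and 16.9, 15.7 and 18.9 CPM in MKO livers. All MKO livers were above all f/f livers, as they were for Isg15 alone among the other 41 genes (9.60% of all genes, against 7.74% with all MKO livers below), and its log2 fold change was 0.60 ± 0.13 (unadjusted p = 0.0022, adjusted p = 0.315 in edgeR). Isg15 was at 4.40, 7.03 and 6.73 CPM in f/f and 7.04, 8.57 and 12.99 CPM in MKO, a log2 fold change of 0.65 ± 0.29 (unadjusted p = 0.0559 in edgeR). Tgtp1 was at 3.99, 9.54 and 7.17 CPM in f/f and 8.80, 8.64 and 16.2 CPM in MKO, and Gbp5 at 0.609, 2.73 and 1.59 CPM and 2.21, 3.62 and 2.62 CPM. In both the genotypes overlapped, and the log2 fold changes were 0.69 ± 0.38 and 0.77 ± 0.52. Iigp1, the GTPase gene with the highest level per length in liver, was at 184, 227 and 276 CPM in f/f and 221, 283 and 381 CPM in MKO.

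Among the antiviral genes in liver, Oasl1 was at 9.44, 15.2 and 11.8 CPM in f/f and 14.4, 18.5 and 14.6 CPM in MKO, a log2 fold change of 0.38 ± 0.20 (unadjusted p = 0.0939 in edgeR). Mx2 was at 9.85, 11.3 and 10.0 CPM in f/f and 8.02, 13.4 and 20.7 CPM in MKO, and Ifit1 at 6.26, 15.8 and 12.1 CPM and 12.7, 16.6 and 16.8 CPM. Ifit3, the highest of them per length, was at 8.29, 21.5 and 15.6 CPM in f/f and 19.8, 20.2 and 19.3 CPM in MKO. For Ifit1, Ifit3 and Oasl1 it was f/f replicate 1 that was under all other livers. The mean log2 CPM of the antiviral genes was 2.17, 3.31 and 3.13 in f/f livers 1 to 3 and 3.03, 3.28 and 2.99 in MKO livers 1 to 3, and that of the GTPase genes 3.05, 4.08 and 3.80 in f/f and 3.90, 4.04 and 4.41 in MKO.

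The sensors and schlafens overlapped between genotypes in liver in 9 of 9 cases. Ifih1 was at 26.0, 31.6 and 29.8 CPM in f/f and 31.4, 29.9 and 33.3 CPM in MKO (log2 fold change 0.11 ± 0.10), and Zbp1 at 8.73, 9.10 and 9.59 CPM and 7.80, 9.17 and 16.8 CPM (log2 fold change 0.30 ± 0.29). For Zbp1 it was MKO replicate 3 that stood above the other livers. Slfn4 was at 2.33, 3.20 and 1.36 CPM in f/f and 0.391, 1.45 and 1.52 CPM in MKO (log2 fold change -1.04 ± 0.56), and Slfn5 at 4.57, 14.0 and 14.4 CPM and 11.09, 13.02 and 7.646 CPM (log2 fold change -0.05 ± 0.44). The highest levels per length in f/f livers were those of Slfn2 among the schlafens, at 5.75 ± 4.21 RPKM, and of Dhx58 and Ddx58 among the sensors, at 5.12 ± 0.932 and 5.07 ± 1.12 RPKM. Bst2 was at 75.3, 78.0 and 96.0 CPM in f/f and 93.52, 101.9 and 108.1 CPM in MKO (log2 fold change 0.28 ± 0.12, unadjusted p = 0.0511 in edgeR). Ifitm3 was at 299.5, 259.0 and 250.1 CPM in f/f and 268, 263 and 300.4 CPM in MKO.

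Liver f/f replicate 1 was below all 3 MKO livers for 38 of 42 genes, where 31.9% of all genes were. That liver also differed in its cell markers. Endothelial markers (6 genes) summed to 46.4 CPM in it and 108.7 to 169.9 CPM in the other 5 livers, and stellate cell or fibroblast markers (8 genes) to 36.0 CPM in it and 121.9 to 316.8 CPM in the others. Neutrophil markers (9 genes) summed to 109.2 CPM in it and 9.52 to 33.3 CPM in the others, while the defining marker Ly6g had at most 2 counts in any liver. Monocyte markers (5 genes) summed to 30.35 CPM in it, 20.5 and 11.8 CPM in f/f replicates 2 and 3, and 9.05 to 10.2 CPM in MKO. The part of these cells in the differences was not tested. Without this library the median log2 fold change of the 42 genes was 0.03, that of the antiviral genes -0.02 and that of the GTPase genes 0.17. In that fit 1 gene, Ifi47, was higher at an unadjusted p under 0.05 (5.28% of all genes) and 1, Oas1a, was lower (5.24%), and 22 of 42 log2 fold changes were above 0 in place of 33. The count of members higher at an unadjusted p under 0.05 was 7 without f/f replicate 2 (6.35% of all genes), 5 without f/f replicate 3 (3.41%) and 3 without MKO replicate 1 (3.56%), Ifi47 being among them each time.

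**Figure D4:**
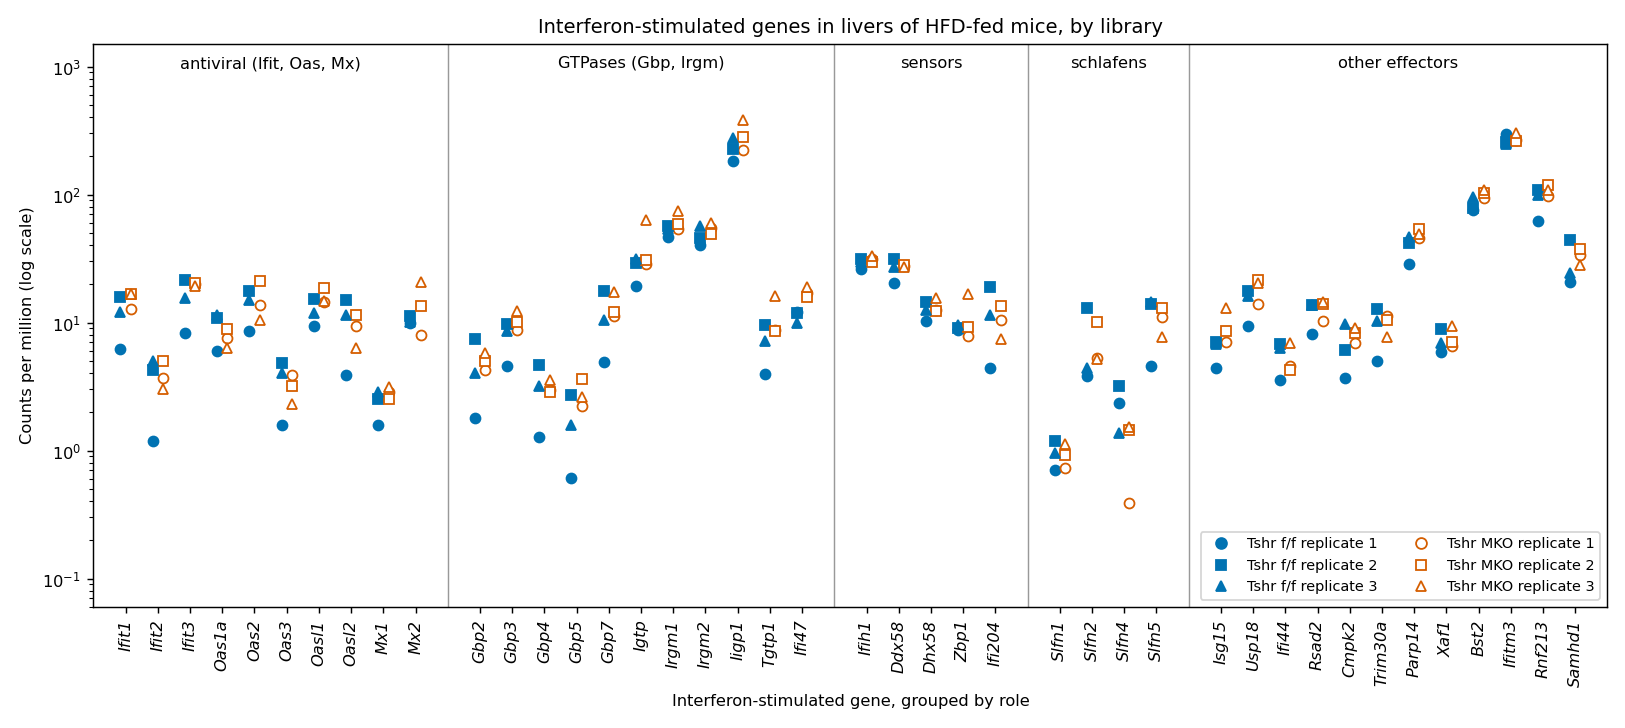
Each of the 42 genes in the 6 livers, in CPM on a log axis, grouped by role, with filled symbols for f/f, open symbols for MKO and 1 symbol shape per replicate number. Replicate 1 of f/f is below all MKO livers for 38 of 42 genes, and only Ifi47 and Isg15 have every MKO liver above every f/f liver.

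The interferon ligands were close to absent from the livers, with 19 of 21 genes at 0 counts in each library and Ifng with 0, 0 and 4 counts in f/f and 0, 0 and 0 in MKO. No ligand was tested in liver. Of the 6 receptor genes, 0 were higher or lower at an unadjusted p under 0.05 in edgeR, and DESeq2 called 0 of them at an adjusted p under 0.05. Jak2 was at 8.80, 16.7 and 15.3 CPM in f/f and 13.6, 13.3 and 11.7 CPM in MKO, with genotypes that overlapped. In the wider list, 60 genes were tested in liver, with a median log2 fold change of 0.09. Of the 60, 8 were higher (5.27% of all genes) and 1 was lower (5.18%) at an unadjusted p under 0.05. The 4 with the lowest p were Gbp11 (1.25 ± 0.26), Apol9b (0.57 ± 0.17), Gbp10 (1.65 ± 0.53) and Tor3a (-0.88 ± 0.31). Gbp11 was at 1.49, 1.74 and 2.32 CPM in f/f and 4.83, 3.74 and 4.64 CPM in MKO, and Gbp10 at 1.96, 7.97 and 4.35 CPM and 11.1, 11.6 and 22.2 CPM. Both had every MKO liver above every f/f liver, and in BMDMs their log2 fold changes were -2.64 ± 0.83 and -2.17 ± 0.54.

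The genotype difference was then compared between the tissues, in 1 fit of all 12 libraries. The log2 fold change in BMDMs minus that in liver was below 0 for 42 of 42 genes. It passed after adjustment for 0 of 42 (0.00580% of 17246 genes, in either direction) and was below 0 at an unadjusted p under 0.05 for 24 of 42 (7.42%) and above 0 for 0 of 42 (7.12%). DESeq2 called 12 of 42 at an adjusted p under 0.05, all lower in BMDMs (2.21% of its genes). As each library was left out in turn, edgeR called 0 to 25 of 42. The 25 came without BMDM f/f replicate 2 (1.49% of all genes), the lowest f/f library in BMDMs for 42 of 42 genes. Leaving that library out widens the difference, so the 25 add no support. Tgtp1 had the lowest p of the 42, with a difference of -3.82 ± 0.85 on the log2 scale (edgeR unadjusted p = 0.00106, adjusted p = 0.146). Igtp followed with -2.48 ± 0.57 (unadjusted p = 0.00123 in edgeR), Gbp5 with -4.91 ± 1.15 and Irgm1 with -1.97 ± 0.50. Under the labels, the GTPase genes took the 7 lowest p-values of the 42, before the sensor Zbp1 at -2.32 ± 0.68. Of the antiviral genes, the lowest p was that of Mx2, with -3.003 ± 1.01 (unadjusted p = 0.0135 in edgeR), and the smallest difference that of Oas1a, with -0.71 ± 0.70. These differences take the liver genotypes from the labels. With the liver genotypes exchanged, an alternative chosen after seeing the data, the difference was again below 0 for 42 of 42 genes. It was so at an unadjusted p under 0.05 for 11 of 42 (7.46% of all genes), passed after adjustment for 0 of 42 (0.0116%), and 5 of the 7 lowest p-values were those of GTPase genes. Fold changes in BMDMs were larger in size than in liver, so the sign under exchange was set by BMDMs. The exchange thus does not test the labels. In BMDMs the SE of the fold change was larger than in liver for 41 of the 42 genes.

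**Figure D5:**
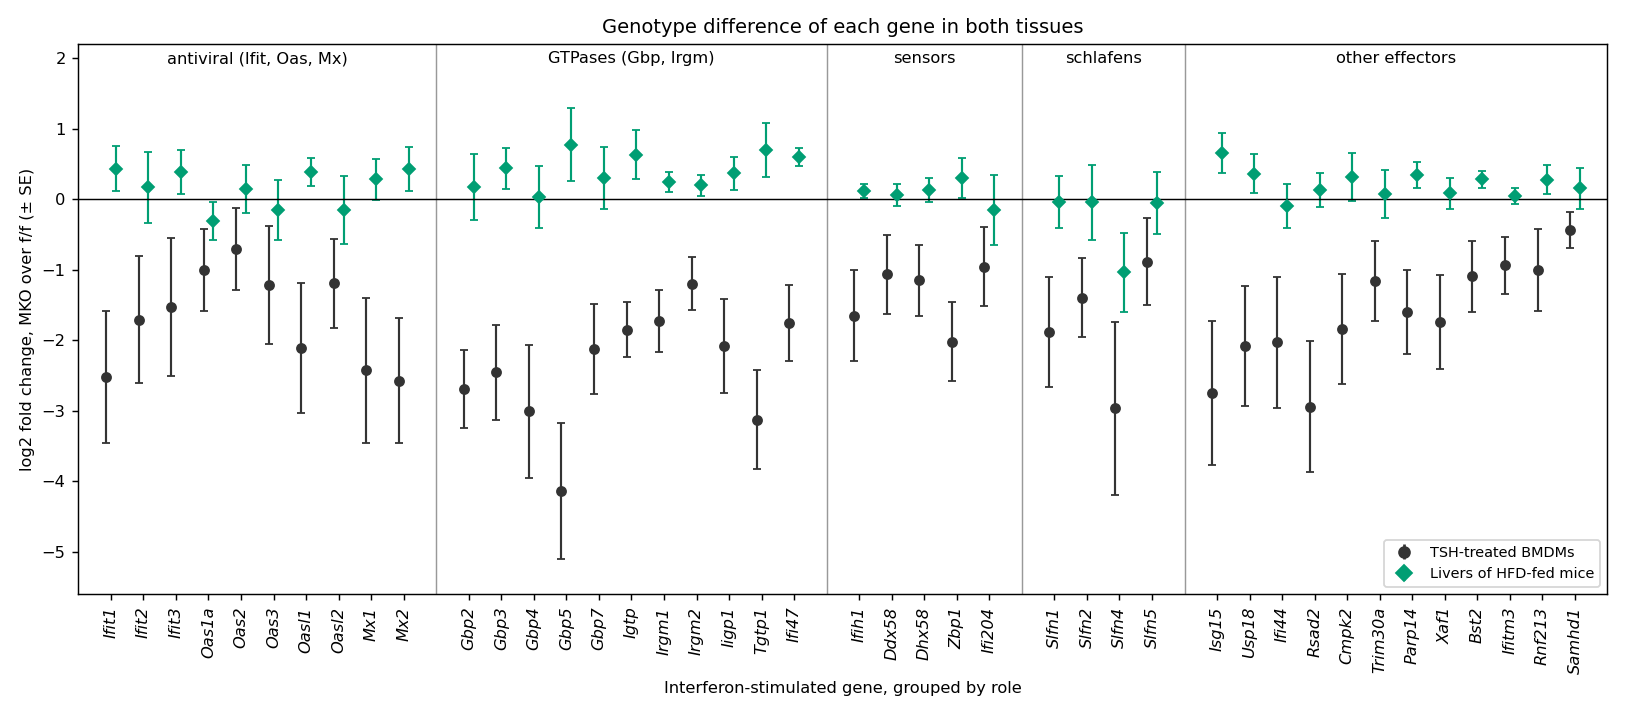
Log2 fold change (MKO over f/f) of each of the 42 genes with its SE, in BMDMs (circles) and in livers (diamonds), grouped by role, with a line at 0. All 42 circles lie below 0, from -4.14 for Gbp5 to -0.44 for Samhd1, and the diamonds lie between -1.04 for Slfn4 and 0.77 for Gbp5.

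Some of the 42 genes have near copies with which reads could be shared in counting. Of the 75-base stretches of its transcripts, Tgtp1 shared 77.2% with other genes (mostly Tgtp2), Oas1a 47.6% (Oas1g) and Ifit3 41.1% (Ifit3b), and 4 more shared between 5.19% and 13.2%. Their values are uncertain to that extent. Tgtp2 in BMDMs was at 360.2, 115 and 636 CPM in f/f and 48.1, 63.6 and 66.1 CPM in MKO, in the same order of libraries as Tgtp1 within f/f. The annotated transcripts of Igtp and Irgm2 overlap on the same strand of chromosome 11, so their counts may not be fully separate.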

How the data were processed

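RNA was measured by strand-specific sequencing of 12 libraries, and the values used are the raw counts per gene deposited by the authors. The submitters' notes name FastQC 0.11.2, STAR, StringTie and the build mm10. The program and annotation behind the counts are not given in the sources used here. Groups were taken from the sample labels. Each tissue was fitted over all genes with edgeR 4.0.16 (R 4.3.3): filterByExpr (minimum count 10), TMM factors, robust quasi-likelihood fit and test, and Benjamini-Hochberg adjustment. The tissues were compared by an interaction contrast over all 12 libraries. DESeq2 1.42.0, other scalings and filters, a replicate block, leaving out each library and, in liver, a term for the letter that opens each sample ID were alternatives. Exchanging the liver genotypes was added after seeing the data. CPM uses TMM-scaled totals. RPKM divides by exon length on GENCODE M21. The fits were tested on simulated data, where a larger share of DESeq2's calls than of edgeR's fell on unchanged genes. The study's own test, which has no term for the spread between replicates, was not run. Library totals of 28962878 to 40954211 set the level of 3 counts at 0.0687 to 0.115 CPM, which covers counting error only.

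The 42 genes and all lists were chosen with earlier results of these data known. All 42 are counted. For each tissue and role, values in every library are given for the 2 genes with the lowest unadjusted p and the 1 with the largest log2 fold change, and levels for the 1 that was highest per length. Genes given in full outside this rule, among them Oas2, Samhd1, Usp18, Socs3 and Tgtp2, and the BMDM values of Tgtp1, Iigp1, Ifi47 and Isg15, were picked once their values had been seen. Results for 1 item are not reported here.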

Additional observations from a re-analysis of the deposited data

How the results depend on the processing

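All 546 log2 fold changes of the 42 genes in BMDMs over 13 alternatives stayed below 0, but the counts of genes past a threshold moved. The 21 genes lower in MKO BMDMs at an unadjusted p under 0.05 became 32 with all 12 libraries in 1 fit, 32 with DESeq2, 12 with the replicate block and 8 to 42 as each library was left out. The 0 at an adjusted p under 0.05 became 17 with DESeq2 and 0 to 2 with a library left out. In liver, the 1 gene higher in MKO became 3 without a filter, 2 with a mean of at least 50 counts, 0 with all 12 libraries in 1 fit, 8 with the replicate block, 2 with DESeq2 and 1 to 7 with a library left out. The 0 lower became 0 to 1 with a library left out, and the 0 at an adjusted p became 1 with DESeq2. For the difference between tissues, the 24 genes became 14 with the replicate block, 11 with the liver genotypes exchanged (chosen after seeing the data) and 15 to 39 with a library left out, and the 0 at an adjusted p became 12 with DESeq2 and 0 to 25 with a library left out. Shares of all genes at an unadjusted p are not given for the filters, the fit of all 12 libraries, the replicate block or DESeq2. Whether the members moved more than the whole table under those alternatives cannot be read from the counts. The cause was not tested.

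Same-numbered libraries did not deviate together (correlations of 0.0959, 0.0126 and 0.102 in BMDMs and -0.0562, 0.217 and -0.0209 in liver), so the replicate block pairs libraries by number only.

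Log2 fold changes near 0 changed sign. In BMDMs, with library totals only, Ifngr2 was 0.145, Irf9 0.0998 and Irf3 0.162, and Irf3 was 0.00276 without a filter and 0.0137 with a mean of at least 50 counts. With each library left out in turn, Ifngr2 ranged from -0.130 to 0.0238, Irf9 from -0.296 to 0.0521 and Irf3 from -0.0281 to 0.0282. In liver, Slfn5 was 0.0686 with the replicate block, and with each library left out in turn it ranged from -0.428 to 0.180 and Zbp1 from -0.107 to 0.496. Liver values under each alternative were set out gene by gene for the 12 named genes only (168 values, 5 of them reversed). Over all 42 genes in liver, 0 to 11 log2 fold changes changed sign under an alternative, 11 being the count without f/f replicate 1, where the antiviral median turned from 0.23 to -0.02. With a term for the letter that opens each sample ID, the counts in liver stayed at 0 lower, 1 higher and 0 adjusted, with a median of 0.209 over the 42 genes, while 5 of the 42 changed sign.

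With Tshr at or near 0 counts in each library, the deletion itself could not be checked. With 0 counts in each library, differences in 19 of 21 interferon ligand genes were not detectable at this depth. No pair of libraries in a group agreed within sampling noise.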
